A study of Homo sapiens with 6 samples.

Results

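The 9 genes described here encode proteins that make, end and destroy the mRNA of the replication-dependent histones. They were taken as a fixed list by symbol, chosen with earlier results of these data known. The count table held 57905 genes, and all 9 of the list passed the filter on low counts that left 16622 genes for testing. The cells were NALM6, an established human line of B cell precursor leukemia, with or without THZ1, a compound that binds and covalently blocks the kinase CDK7. RNA-SEQ compared 3 libraries of the solvent DMSO with 3 of THZ1 at 500 nM, after 24 h in both groups. Nothing in the labels says that the 3 samples of a treatment were separate cultures, so the p-values measure the spread between these samples, which may be technical. In bulk RNA, fewer cells of a kind and less RNA per cell cannot be told apart, and all levels are relative to the other RNA of the same library.

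Most mRNAs end in a poly(A) tail, but the mRNAs of the replication-dependent histones end in a short stem-loop just after the stop codon. These genes are switched on in S phase, when new DNA needs histones, inside a nuclear structure called the histone locus body. NPAT, a substrate of cyclin E and CDK2, organises that body, and HINFP binds the promoters of histone H4 genes. The new transcript is cut after the stem-loop by a complex guided by the U7 small nuclear RNA. LSM10 and LSM11 are the ring proteins that only U7 carries, CASP8AP2 (also called FLASH) binds LSM11 and brings in the cleavage factors, and ZNF473 (ZFP100) binds the same particle. SLBP holds the stem-loop from processing through translation. When replication stops, the helicase UPF1 joins SLBP, and the exonuclease ERI1, which also binds the stem-loop, starts the decay from the end of the mRNA.

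The sequence that SLBP and ERI1 bind was read from GRCh37 after the stop codon of the histone genes, because it is what these factors have in common. A perfect hairpin, with a stem of 6 base pairs opening with GG and a loop of 4 bases without G, was found within 100 bases in 31 of 32 replication-dependent histone genes with an identifier in the count table. The exception, H2AC11, is named only. Among the 23 of these genes that were tested, 22 had the hairpin, 22 to 57 bases after the stop codon, in 4 versions. The most frequent version stood in 13 genes. Below, the hairpin is in capitals with 5 bases on each side, for genes that are described further on.
H2BC21, chr1:149857738-149857753, minus strand: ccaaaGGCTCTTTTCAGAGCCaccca
H1-2, chr6:26055972-26055987, minus strand: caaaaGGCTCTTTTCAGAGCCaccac
H2BC12, chr6:27114145-27114160, minus strand: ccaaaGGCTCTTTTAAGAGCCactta
H4C8, chr6:26285359-26285374, minus strand: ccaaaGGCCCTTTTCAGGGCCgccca
H2AC20, chr1:149858941-149858956, plus strand: ccaaaGGCTCTTTTTAGAGCCaccca
The versions differed in the last loop base, and in the H4 genes also in a base pair of the stem. The U7 RNA finds its place by pairing with the stretch after the hairpin. Its gene RNU7-1 lies on chromosome 12 from 7052979 to 7053041, and the RNA of 63 bases is printed with the bases in capitals that were part of the longest perfect match in most of the 22 genes.
RNU7-1: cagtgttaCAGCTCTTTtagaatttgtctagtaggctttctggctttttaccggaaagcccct
The longest perfect complement to the first 20 bases of U7, within 50 bases after the hairpin, was 4 to 13 bases long with a median of 8.5. H2BC4 held the match of 13 bases, CTAAAAGAGCTGT. Other sequence was not searched for comparison, so the matches are descriptions of letters, and the short ones need not be pairing sites. RNU7-1 itself had 0 counts in all 6 libraries, which allows up to 3 counts in each, a limit for counting error only. The levels of U7 were therefore not measured here.

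Counts are given as CPM, gene counts relative to the size of the library after TMM scaling, a step that takes most genes as unchanged. The test was the quasi-likelihood test of edgeR, adjusted after Benjamini and Hochberg over all genes tested, and a gene with an adjusted p-value below 0.05 was called lower or higher. The total counts were 11015480 to 11164840 in the DMSO-treated and 7876402 to 8314306 in the THZ1-treated libraries, and 3 counts corresponded to at most 0.253 and 0.415 CPM. B cell precursor markers were present in all libraries (10 of 10 tested, with a sum of 3409 to 3637 CPM with DMSO and 1797 to 1829 CPM with THZ1), while the T cell markers summed to at most 0.969 CPM. Markers of myeloid cells summed to 1.56 to 2.11 CPM with DMSO and 17.6 to 17.9 CPM with THZ1, those of erythroid cells to at most 3.55 CPM, and those of stromal or epithelial cells to 3.11 to 4.46 and 15.6 to 16.1 CPM. FCN1 and KRT18 were at 0 throughout, and the part of the other markers in the results was not tested.

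With THZ1, NPAT, CASP8AP2, LSM11 and SLBP were lower, UPF1 was higher, and ZNF473, LSM10, ERI1 and HINFP were not called. Hence 4 of the 9 factors were lower, where 41.1% of all genes tested were, and 1 was higher, where 43.5% were, so that 5 had a call in either direction, where 84.5% of all genes had one. A fall of at least 1.5 on the log2 scale was seen for 1 of them, NPAT, and for 12.9% of all genes. The share of lower factors was therefore near that of all genes and is not a result about the list. The median log2 fold change of the 9 was −0.26, beside 0.028 over all genes tested. The libraries of the treatments did not overlap for 5 of the 9, where this held for 84.7% of all genes.

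**Figure D1:**
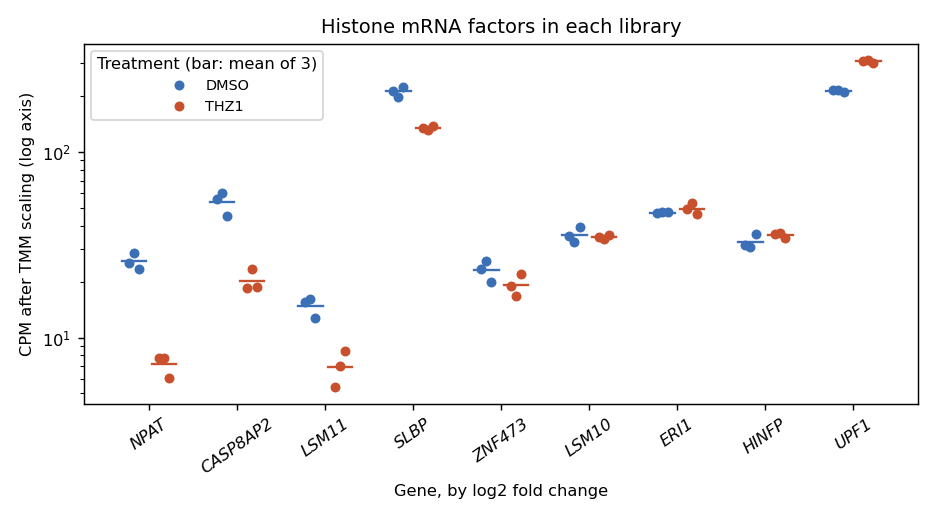
Level of each of the 9 factors in every library, in CPM after TMM scaling on a log axis, with points for the 3 libraries and a bar for the mean of each treatment, ordered by log2 fold change. The THZ1-treated libraries of NPAT, at 6.02 to 7.76 CPM, lie below its DMSO-treated libraries at 23.5 to 28.4 CPM, while the libraries of LSM10, ERI1, HINFP and ZNF473 overlap.

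Of the factors that act on transcription, NPAT (ENSG00000149308) lies on chromosome 11 from 108027942 to 108093365 on the minus strand. It had 25.1, 28.4 and 23.5 CPM in the DMSO-treated and 7.76, 7.75 and 6.02 CPM in the THZ1-treated libraries, so that every treated library was far under every control. The mean fell from 25.7 ± 2.53 to 7.18 ± 1.00 CPM (SD, n = 3 each), a 3.58-fold decrease. On the log2 scale NPAT fell by 1.84 (standard error 0.15, adjusted p = 4.9e-13 by edgeR), and 8.22% of all genes tested had a lower value. HINFP (ENSG00000172273), on chromosome 11 from 118992290 to 119006769, had 31.7, 30.7 and 36.0 CPM with DMSO and 35.9, 36.5 and 34.2 CPM with THZ1. DMSO replicate 3 lay among the treated libraries. Its log2 fold change of 0.12 had a 95% interval from −0.09 to 0.32 and was not called (adjusted p = 0.272 by edgeR), and the direction depended on the scaling and the table. HINFP was −0.13 with library sizes alone, 0.31 with upper quartile factors (adjusted p = 0.00505 by edgeR) and −0.24 in the deposited log2 FPKM values (adjusted p = 0.0443 by limma).

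Of the U7 particle, LSM11 fell and LSM10 gave no call. LSM11 (ENSG00000155858), on chromosome 5 from 157170720 to 157187717, had 15.6, 16.1 and 12.7 CPM with DMSO and 5.39, 7.06 and 8.42 CPM with THZ1. The groups were apart, with counts per library from 151 to 196 and from 41 to 63. LSM11 fell 2.13-fold, by 1.09 on the log2 scale (standard error 0.17, with adjusted p = 7.6e-07 by edgeR). LSM10 (ENSG00000181817), on chromosome 1 from 36856839 to 36863509, had 35.3, 32.9 and 39.2 CPM with DMSO and 34.8, 34.1 and 35.8 CPM with THZ1. All 3 treated libraries fell inside the range of the controls, and the 95% interval of the log2 fold change reached from −0.24 to 0.17 (value −0.035, adjusted p = 0.747 by edgeR). With library sizes alone LSM10 was called lower (−0.28, adjusted p = 0.00933 by edgeR), and its sign turned with upper quartile factors (0.16). The ratio of LSM11 to LSM10 in CPM, which no scaling of the libraries changes, was 0.443, 0.489 and 0.325 with DMSO and 0.155, 0.207 and 0.235 with THZ1. Its mean was 2.10-fold lower with THZ1, and the exact permutation test gave p = 0.1 (two-sided), the smallest that 3 libraries against 3 allow.

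The partners of the particle also differed. CASP8AP2 (ENSG00000118412), on chromosome 6 from 90539613 to 90584155, had 55.7, 60.0 and 45.1 CPM with DMSO and 18.4, 23.5 and 18.7 CPM with THZ1, with no overlap. The fall from 53.6 ± 7.64 to 20.2 ± 2.87 CPM (SD, n = 3 for both) was −1.41 on the log2 scale, with a standard error of 0.12 and an adjusted p = 1.1e-12 by edgeR. A Y RNA gene lies within CASP8AP2 on the same strand. ZNF473 (ENSG00000142528), on chromosome 19 from 50528971 to 50556671, had 23.4, 26.0 and 19.8 CPM with DMSO and 18.9, 16.7 and 22.1 CPM with THZ1. Here DMSO replicate 3 was below THZ1 replicate 3, and the log2 fold change of −0.26 missed the threshold (adjusted p = 0.0593 by edgeR, standard error 0.13). ZNF473 was called lower without DMSO replicate 3 (−0.38, adjusted p = 0.00336) and without THZ1 replicate 3 (−0.38, adjusted p = 0.0199), by the same edgeR test. It was −0.067 with upper quartile factors (adjusted p = 0.628), −0.13 when every library needed 10 counts (adjusted p = 0.365) and −0.18 without THZ1 replicate 2 (adjusted p = 0.235), all by edgeR and not called. With library sizes alone it was −0.51 and called (adjusted p = 0.000860 by edgeR). In the deposited log2 FPKM values it was −0.67 (adjusted p = 0.00628 by limma). Its gene overlaps VRK3 at the start and ENSG00000269091 within, both on the opposite strand, and ZNF473CR at the end on its own strand, and the strand setting of the counting is not given in the sources used here.

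SLBP (ENSG00000163950), on chromosome 4 from 1694458 to 1714071, was among the abundant factors. It had 213, 198 and 225 CPM in the DMSO-treated and 134, 131 and 138 CPM in the THZ1-treated libraries, and the spread within a treatment was small against the gap. SLBP fell 1.58-fold, by 0.66 on the log2 scale with a standard error of 0.07 (adjusted p = 5.2e-10, edgeR). The size depended on the scaling, from −0.46 with upper quartile factors to −0.90 with library sizes alone, but SLBP was lower and called under all 16 alternatives. The interval of SLBP, −0.80 to −0.51, did not overlap those of NPAT (−2.14 to −1.54) and CASP8AP2 (−1.65 to −1.17). It did overlap that of LSM11 (−1.44 to −0.74).

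Of the decay factors among the 9, UPF1 was higher and ERI1 was not called. UPF1 (ENSG00000005007), on chromosome 19 from 18942768 to 18979039, had 215, 215 and 211 CPM with DMSO and 310.2, 311 and 301 CPM with THZ1. It was the factor that rose, 1.44-fold (0.52 on the log2 scale with a standard error of 0.07, adjusted p = 9.6e-09 by edgeR), and over the alternatives it stayed between 0.28 and 0.72 and was called in each. UPF1 also acts on many other mRNAs, in nonsense-mediated decay. ERI1 (ENSG00000104626), on chromosome 8 from 8859657 to 8974256, had 46.6, 47.2 and 47.4 CPM with DMSO and 49.2, 52.9 and 46.1 CPM with THZ1. The treated libraries lay on both sides of the controls, and the log2 fold change of 0.07 (95% interval −0.11 to 0.25, adjusted p = 0.470 by edgeR) changed sign with library sizes alone (−0.18).

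**Figure D2:**
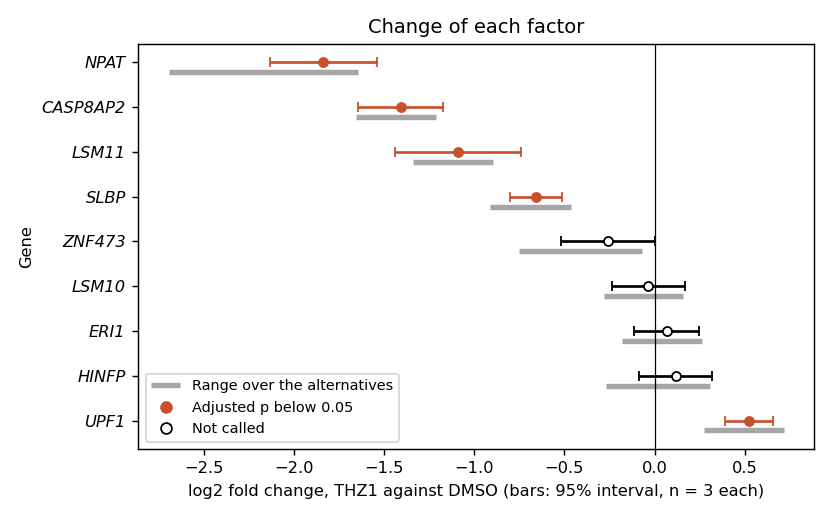
log2 fold change of each factor with its 95% interval (points and bars, 3 libraries of each treatment, edgeR), and the lowest and highest value over the alternative analyses (grey). NPAT, CASP8AP2, LSM11 and SLBP stay below 0 and UPF1 above 0 throughout, while the grey bars of LSM10, ERI1 and HINFP cross 0.

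Within the DMSO-treated group, replicate 3 had the lowest level of NPAT, LSM11, ZNF473, CASP8AP2 and UPF1 and the highest of SLBP, LSM10, HINFP and ERI1, and so was at an end of the range for all 9 factors. Replicate 2 had the opposite extreme for each but ERI1. Over all genes these were also the replicates furthest apart, with a chi-square per gene of 9.35, beside 3.06 and 4.11 for the other DMSO pairs and 1.81 to 2.32 for the THZ1 pairs. These deviations were smaller than the gap between treatments for NPAT, LSM11, CASP8AP2, SLBP and UPF1. Levels between genes were compared per length, in the deposited FPKM values, which hold 7 of the 9 factors and not LSM11 or CASP8AP2. With DMSO, SLBP had 330.2 ± 7.56 FPKM, UPF1 70.2 ± 2.97, LSM10 67.0 ± 3.96, ERI1 20.9 ± 0.308, NPAT 10.2 ± 0.681, HINFP 9.996 ± 0.993 and ZNF473 9.99 ± 1.01 FPKM (SD, n = 3). UPF1 and LSM10 overlapped, as did NPAT, HINFP and ZNF473, and the other neighbours in this order did not. With THZ1 the order was SLBP at 175 ± 4.27, UPF1 at 90.6 ± 1.87, LSM10 at 59.6 ± 1.63, ERI1 at 19.7 ± 1.34, HINFP at 8.26 ± 0.328, ZNF473 at 5.95 ± 1.16 and NPAT at 1.499 ± 0.264 FPKM, with no overlap of neighbours. NPAT thus moved from the fifth place to the last.

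The factors also differ in length, and a part of gene length in the changes was not tested. NPAT spans 65.4 kb with 18 exons in its canonical transcript, CASP8AP2 44.5 kb with 9, LSM11 16.998 kb with 4 and SLBP 19.6 kb with 8. ERI1, without a call, spans 114.6 kb with 7 exons, and UPF1, which rose, 36.3 kb with 24. ZNF473 spans 27.7 kb with 5, HINFP 14.5 kb with 10 and LSM10 6.67 kb with 2. For each factor, the protein-coding gene with the most similar profile was found by the Euclidean distance of centred log2 CPM over the 6 libraries. These were RETREG1 for NPAT (distance 0.144), UTP14C for CASP8AP2 (0.0720), C1orf21 for LSM11 (0.176) and XRCC6 for SLBP (0.0448). For the others they were ATP2C1 for ZNF473 (0.128), SNAP47 for LSM10 (0.0394), ARFGAP2 for ERI1 (0.0438), SPATA21 for HINFP (0.0714) and ATG16L2 for UPF1 (0.0511). With 2 treatments, such a profile is little more than the size of the change.

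For 3 of the factors another gene starts within 1000 bases on the opposite strand. ATM, the kinase of the DNA damage response, starts 406 bases from NPAT. It had 59.1, 66.5 and 54.3 CPM with DMSO and 33.9, 30.3 and 33.7 CPM with THZ1, so both genes of this pair were lower without overlap. ATM fell by 0.88 on the log2 scale (adjusted p = 7.9e-10 by edgeR), beside a fall of NPAT by 1.84. TACC3, a spindle protein, starts 514 bases from SLBP and moved the other way. TACC3 rose from 203 ± 3.08 to 561 ± 19.1 CPM, by 1.47 on the log2 scale (adjusted p = 3.4e-19 by edgeR), and the lincRNA RP11-572O17.1, which starts 477 bases from SLBP and overlaps TACC3 on the same strand, rose from 4.05 ± 1.23 to 20.1 ± 3.13 CPM. VRK3, which starts 232 bases from ZNF473, fell from 40.6 ± 3.17 to 18.3 ± 2.63 CPM (log2 fold change −1.15, adjusted p = 8.9e-11 by edgeR). Neighbours that share a start region therefore moved the same way at NPAT and in opposite ways at SLBP.

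The promoters of NPAT and SLBP are shown because these neighbours start beside them, and that of CASP8AP2 because it alone held a match to an E2F word. RefSeq, on GRCh38.p14, gave 300 bases for 7 of the 9 factors, from 250 bases before the start to 50 after it, and ERI1 and ZNF473 are named only. Capitals mark CCAAT on either strand and the E2F words TTTCCCGC, TTTGGCGC and TTTCGCGC on either strand.
NPAT, chr11:108222589-108222888, minus strand: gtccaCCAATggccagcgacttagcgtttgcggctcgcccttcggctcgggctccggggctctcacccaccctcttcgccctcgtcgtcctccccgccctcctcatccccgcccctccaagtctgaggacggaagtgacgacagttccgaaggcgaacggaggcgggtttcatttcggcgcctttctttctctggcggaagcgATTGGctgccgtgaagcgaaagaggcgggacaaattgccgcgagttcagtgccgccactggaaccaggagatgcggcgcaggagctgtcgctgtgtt
SLBP, chr4:1712270-1712569, minus strand: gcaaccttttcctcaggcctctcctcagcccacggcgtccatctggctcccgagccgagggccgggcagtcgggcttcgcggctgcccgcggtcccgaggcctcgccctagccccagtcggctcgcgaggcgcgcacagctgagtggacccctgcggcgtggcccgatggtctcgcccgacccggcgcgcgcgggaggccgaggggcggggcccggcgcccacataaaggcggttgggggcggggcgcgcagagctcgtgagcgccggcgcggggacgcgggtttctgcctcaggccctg
CASP8AP2, chr6:89829630-89829929, plus strand: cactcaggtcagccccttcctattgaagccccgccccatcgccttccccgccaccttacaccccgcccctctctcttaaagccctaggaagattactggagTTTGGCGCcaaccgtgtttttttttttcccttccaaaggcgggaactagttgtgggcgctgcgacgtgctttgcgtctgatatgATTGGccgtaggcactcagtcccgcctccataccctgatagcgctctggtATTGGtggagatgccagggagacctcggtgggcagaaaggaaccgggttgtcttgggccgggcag
An E2F word stood in 1 of the 7 promoters and in 2.74% of all 35116 promoters of this length, and CCAAT in 5 of 7 and in 34.6% of all. SLBP and LSM11 held neither, and these matches are descriptions of letters, not of bound sites. The GC content was 76.7% for SLBP, 64.0% for NPAT and 58.3% for CASP8AP2, beside a median of 58.7% over all promoters.

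Other genes, of the pathway or set beside it, were taken from lists written from general knowledge, with earlier results of these data known. Outside the 9 factors and the replication-dependent histones, 71 genes were tested. Among them were 16 S phase genes and 8 replacement histones, which are not factors of this pathway. Of the 71, 50 were lower and 16 higher, where 41.1% and 43.5% of all genes tested were. These shares are the background for each list below. The S phase genes gave 15 of the lower and 1 of the higher calls, and the replacement histones 3 and 5. In the list of the histone locus body and its kinase, 4 of 5 genes were lower and 0 higher (median log2 fold change −0.53). CCNE2, a cyclin E that activates CDK2 towards NPAT, fell from 50.5 ± 1.76 to 12.8 ± 0.986 CPM (log2 fold change −1.98), and CDK2 from 168 to 71.9 CPM (−1.23). CCNE1, the other cyclin E, had 15.9 ± 3.34 and 17.7 ± 1.94 CPM and was not called (0.15, adjusted p = 0.335 by edgeR). COIL, the scaffold of Cajal bodies, had the smallest fall, −0.38. With upper quartile factors 3 of the 5 were lower and 1 higher, since COIL lost its call and CCNE1 was called higher (0.34, adjusted p = 0.0298 by edgeR).

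All 5 Sm proteins that U7 shares with the spliceosomal particles were lower (median −1.44), from SNRPG at −0.48 to SNRPF at −2.25. SNRPF fell from 108 ± 16.9 to 22.6 ± 1.72 CPM. All 4 cleavage factors shared with polyadenylation were lower too (median −1.04). CPSF2, a partner of the endonuclease CPSF3, had the lowest value, −1.60, falling from 93.2 ± 7.62 to 30.7 ± 2.08 CPM, and CSTF2 the highest, −0.24. The call of CSTF2 was lost with RLE or upper quartile factors, with DESeq2, when every library needed 10 counts, and without THZ1 replicate 1, where 3 of the 4 were called.

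The list of cap binding and elongation factors was divided, with 2 of 5 lower and 3 higher (median 0.87). SRRT (ARS2), which links the cap binding complex to histone mRNA, rose from 325 ± 31.5 to 3061 ± 15.3 CPM, by 3.23 on the log2 scale, whereas NCBP1, the large subunit of that complex, had −1.67. Among the partners of SLBP and its turnover, 6 of 10 were lower and 3 higher (median −0.56). FEM1A, a substrate receptor of ubiquitin ligases, rose from 76.3 ± 1.57 to 396 ± 3.30 CPM (2.37), and MIF4GD (SLIP1), which carries SLBP to translation, from 23.2 ± 2.41 to 67.2 ± 3.51 CPM (1.53). CSNK2A1, a subunit of casein kinase 2, had the lowest value, −1.36.

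Of the decay list 18 of 19 genes were tested, 11 of them lower and 4 higher (median −0.27), and DCP1A had no identifier in the count table. PRKDC, a kinase of the DNA damage response, had the lowest log2 fold change, −1.62, and LSM3, part of the ring that binds the oligouridine tail of decaying histone mRNA, the highest, 0.52. The number of higher genes fell to 1 with library sizes alone, and that of lower genes to 8 with upper quartile factors. TUT7 and TUT4 add such tails, and TUT7 had −0.85 and TUT4 0.29, both called. S phase genes were measured beside these results: 15 of 16 were lower and 1, MCM2, was higher at 0.48 (median −1.34), with CDC45 the lowest at −2.65. MCM2 lost its call with log2(FPKM + 0.1). The part of S phase cells in the change of the factors was not tested.

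**Figure D3:**
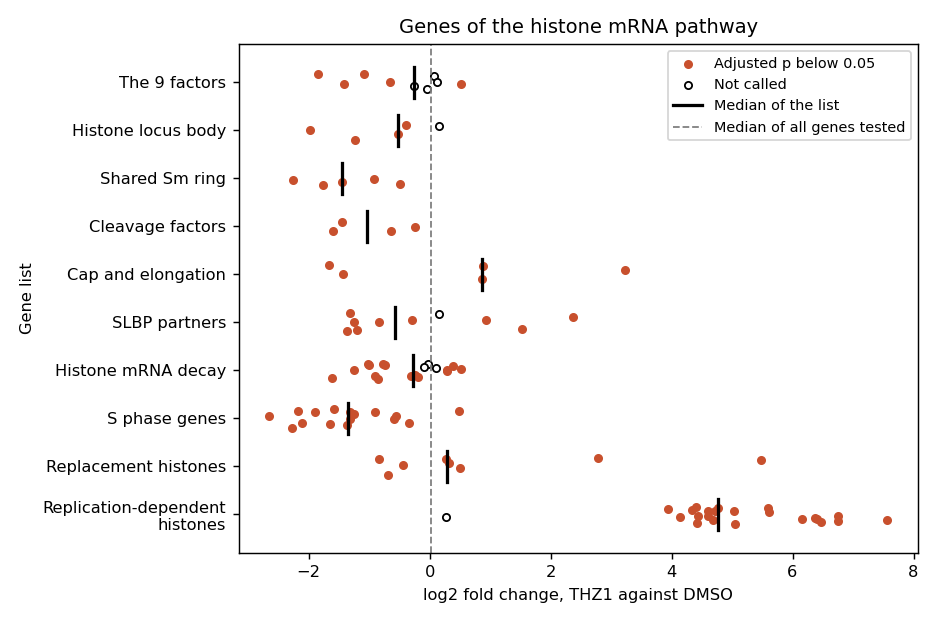
log2 fold change of every tested gene in each list (points, edgeR, 3 libraries of each treatment), with the median of the list (bar) and the median of all genes tested (dashed line at 0.028). The points of the Sm ring and the cleavage factors all lie below 0, and 22 of 23 replication-dependent histone genes lie at 3.93 or higher. Most of these histone genes passed the filter only through the THZ1-treated libraries.

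The tested genes whose mRNAs these factors act on nearly all had higher counts with THZ1. Of 63 replication-dependent histone genes, 32 had an identifier in the count table and 23 were tested. Most of the 23 had under 10 counts in a DMSO-treated library and passed the filter only through the THZ1-treated libraries. For those genes a call of higher was largely set by the filter, so the number of calls is not a result. With THZ1, 22 were higher, each by more than 1.5 on the log2 scale, where 24.6% of all genes passed that limit upwards. The median log2 fold change was 4.77, or 4.53 with the 6 genes at or under 3 counts in every DMSO-treated library set to their lower bound. Because most of these genes entered through their THZ1-treated libraries, this median is not a result either. Summed over the 32 genes, the level was 19.6, 17.5 and 19.1 CPM with DMSO and 696, 779 and 754 CPM with THZ1, a 39.7-fold increase in the mean with no overlap (p = 0.1 by an exact permutation test, two-sided, again the lowest it can give). It was 33.3-fold with library sizes alone. With at least 10 counts required in every library, 4 of the 5 genes left were higher. In the main fit these had log2 fold changes of 6.75 (H2AC11), 5.06 (H1-2), 4.61 (H2BC12) and 4.42 (H2AC6). The fifth gene, H2AC20, had 0.27 and was not called.

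H2BC21 had 8, 9 and 9 counts with DMSO and 968, 1008 and 1116 counts with THZ1, higher by 7.57 on the log2 scale. H2AC11 had 24, 20 and 22 counts and then 1374, 1538 and 1483 (6.75), and H1-2 had 35, 25 and 40 and then 714, 696 and 653 (5.06). The most abundant with DMSO, H2BC12, rose from 5.23 ± 0.228 to 128 ± 6.32 CPM (4.61). The adjusted p-values by edgeR were 3.9e-29 for H2AC11, 2.0e-25 for H1-2 and 9.9e-27 for H2BC12. H2BC21 had under 10 counts in every DMSO-treated library. It passed the filter only through the THZ1-treated libraries, so no p-value is given for it. H2AC20 was the exception, with 30, 22 and 22 counts and 23, 13 and 19 counts (log2 fold change 0.27, adjusted p = 0.433 by edgeR). Its hairpin was the version that no other tested gene had, and a link between the hairpin and the level was not tested. Histone genes are near-identical copies, so that reads may be lost or divided between them. How the RNA was selected for sequencing is not given in the sources used here, and gene counts cannot tell transcripts that end at the stem-loop from longer ones with a poly(A) tail.

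**Figure D4:**
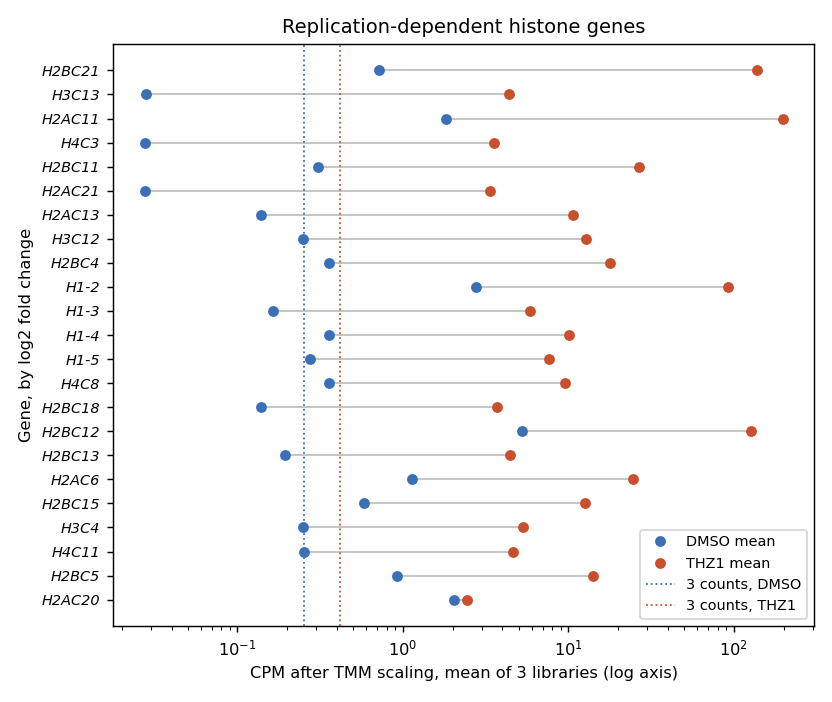
Mean level of each of the 23 tested replication-dependent histone genes with DMSO and with THZ1 (points, 3 libraries each, CPM after TMM scaling on a log axis), with dotted lines at the CPM of 3 counts. All genes but H2AC20 lie far to the right with THZ1, up to 197 CPM for H2AC11, and several lie under the DMSO line in the controls.

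Set side by side, the libraries with higher counts at replication-dependent histone genes had lower levels of NPAT, of LSM11 and CASP8AP2 in the U7 pathway, and of SLBP. A lower call was also given to 41.1% of all genes tested. ERI1, LSM10, HINFP and ZNF473 had levels in the same libraries whose intervals of change include 0, and UPF1 was higher. All these differences rest on the same 6 libraries and the same contrast, and a link between them was not tested.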

How the data were processed

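The 6 RNA-SEQ libraries of NALM6 cells were used as the labels group them. The count table that the authors deposited holds raw gene counts of filtered reads, aligned by STAR to GRCh37 and assigned to genes by htseq-count. The annotation and strand setting are not given in the sources used here. A second table, which the authors deposited on a log2 scale for FPKM from RSEM, was read as log2(FPKM + 1). Its libraries of one treatment have nearly the same distribution of values, and the sources used here name no step that would make them alike. Its columns of the authors' own fold changes and p-values were not used.

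Genes were filtered with filterByExpr (minimum count 10, minimum total 15), scaled by TMM and tested with edgeR 4.0.16 (quasi-likelihood, two-sided, treatment only, R 4.3.3). Symbols, positions and neighbours came from GENCODE 44 mapped to GRCh37. As alternatives, the fit was repeated unfiltered, with 10 counts needed in every library, with RLE factors, upper quartile factors or library sizes alone, with a replicate block, without 1 library at a time, with DESeq2 1.42.0, and with limma 3.58.1 on log2(FPKM + 1) or, after undoing the deposited log2 step, log2(FPKM + 0.1). The main edgeR fit, DESeq2 and limma on log2 CPM were tested on simulated counts, and the other alternatives were not. The simulation changed few genes, as many up as down, so it cannot test the scaling step that takes most genes as unchanged. The 9 genes and the lists were chosen with earlier results of these data known. Named beside the 9 were the called extremes of each list, CDK2, CCNE1, CCNE2, RNU7-1, genes starting within 1000 bases on the opposite strand, and the nearest profile of each factor. TUT4, TUT7, CPSF3, MIF4GD, DCP1A, H2AJ, H3-3B, the genes whose sign turned, the marker genes and the histone genes other than H2BC21 and H2BC5 were named after their values were seen. Floors of 3 counts cover counting error only.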

Additional observations from a re-analysis of the deposited data

How the results depend on the processing

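Another scaling moved the median log2 fold change of all genes by 0.19 (upper quartile factors) or −0.25 (library sizes alone), and changes are relative to that. NPAT, SLBP and UPF1 were called in the same direction under all 16 alternatives, and LSM11 and CASP8AP2 under the 13 made from counts. With upper quartile factors 3 factors were higher, ERI1 (0.26) and HINFP (0.31) beside UPF1, and likewise 3 when every library needed 10 counts. With library sizes alone 6 were lower, LSM10 and ZNF473 among them, and 2 by at least 1.5. Without 1 library at a time there were 4 to 5 lower factors and 1 higher, and 1 to 2 were lower by at least 1.5, CASP8AP2 passing that limit without DMSO replicate 3 and without THZ1 replicate 2. Of the further lists, S phase genes and replacement histones included, 10 genes were higher with log2(FPKM + 1) and 9 with log2(FPKM + 0.1). Under each, 64 genes were tested. The summed histone level was 33.3-fold higher with library sizes alone. Per length from counts, 5 of 7 factors kept their place with DMSO and 7 with THZ1.

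Signs turned for genes that were not called, apart from LSM7. LSM10 was 0.033 with RLE factors and with DESeq2, 0.16 with upper quartile factors and 0.098 with 10 counts in every library, and between −0.11 and 0.015 with libraries left out. LSM2 was 0.042, 0.042, 0.17 and 0.11 in the same order, and between −0.13 and 0.052. EXOSC10 was 0.097 with upper quartile factors and 0.037 with 10 counts in every library. With library sizes alone ERI1 was −0.18, HINFP −0.13, CCNE1 −0.095, FEM1C −0.088 and LSM1 −0.15, and ERI1 was −0.018 with no filter. CCNE1 lay between −0.032 and 0.26 with libraries left out, below 0 without DMSO replicate 2. With log2(FPKM + 1), also at a mean FPKM of at least 1, ERI1 was −0.082, HINFP −0.24, FEM1C −0.070, LSM1 −0.028 and LSM7 −0.013, and with log2(FPKM + 0.1) ERI1 was −0.086, HINFP −0.27, FEM1C −0.076, LSM1 −0.029 and LSM7 −0.013. LSM7 was 0.30 and called higher as reported (adjusted p = 0.000885 by edgeR), a call lost with log2(FPKM + 1) (adjusted p = 0.886 by limma) and with library sizes alone. The cause was not tested.

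Samples with the same replicate number did not deviate together (correlations of −0.0040 to 0.021), so the numbers pair nothing. With a replicate block, 4 factors were lower, 1 higher and 1 lower by at least 1.5, and 50 genes of the lists were lower and 16 higher.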

Other observations

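The replacement histones, which are made outside S phase from mRNAs with a poly(A) tail, were divided with THZ1. Of 8 tested, 5 were higher and 3 lower (median log2 fold change 0.30), where 43.5% and 41.1% of all genes tested were. With library sizes alone 3 were higher. H1-10, a linker histone, rose from 177 to 1210 CPM (log2 fold change 2.78, adjusted p = 9.2e-25 by edgeR). H3-3B, which encodes H3.3, rose by 0.51 on the log2 scale and MACROH2A1 fell by 0.84. H2AJ, which is counted among the 5 higher genes and in the median, was at or under 3 counts in every DMSO-treated library. This gene passed the filter only through the THZ1-treated libraries. Its log2 fold change was at least 2.82.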
